A study of Mus musculus with 16 samples.

Results

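The 9 transcription factor genes that set hepatocyte identity, Hnf4a, Foxa1, Foxa2, Foxa3, Onecut1, Onecut2, Cebpa, Cebpb and Prox1, were followed through their H3K27 acetylation (H3K27ac) in mouse liver. H3K27ac marks active promoters and enhancers, and was profiled by ChIP-seq, the sequencing of DNA pulled down with an antibody to the mark. A region of the deposited count table belonged to one of the genes when its midpoint lay inside that gene, or lay in no protein-coding gene with that gene as the nearest one within 50 kb. This gave 139 of the 52645 regions, for 9 of the 11471 protein-coding genes that received a region. The rule uses no measured value, though the genes were chosen with earlier results of these data known. Proximity does not show which gene a region acts on.

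The mice, of a strain background labelled C57BL/6J, were wild type (WT) or lacked the nuclear receptor corepressor NCoR1 (NCoR1 KO, KO below). From 6 weeks of age they stayed on chow or received PTU/LID, a low-iodine feed with 0.15% propylthiouracil, a blocker of thyroid hormone synthesis, for 3 weeks. All livers, chow included, were taken on day 21. The 4 groups WT chow, WT PTU/LID, KO chow and KO PTU/LID had 3 H3K27ac libraries each, and 4 further libraries were inputs that were not used here. The sources used here name neither the allele nor the deleted part of Ncor1 nor the cells that lost it. Libraries are called by their titles. Nothing in the labels says that each came from its own animal, and p-values therefore reflect library-to-library spread, which may be technical. Whole liver was used, so fewer cells of a type and less acetylation per cell cannot be told apart.

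Hepatocyte identity rests on a small circuit of transcription factors that bind each other's control regions and those of most liver genes. Hnf4a encodes a nuclear receptor that maintains the differentiated hepatocyte. The 3 Foxa genes encode forkhead pioneer factors, which open chromatin, with Foxa1 and Foxa2 acting early in liver specification. Onecut1 (HNF6) and Onecut2 encode cut-homeodomain proteins of liver and bile duct development. Cebpa and Cebpb encode leucine-zipper factors, the first tied to the metabolic programme of resting hepatocytes and the second to the acute phase and regeneration. Prox1 encodes a homeodomain corepressor that hepatoblasts need for migration and adult hepatocytes keep. NCoR1 brings histone deacetylase 3 to nuclear receptors without ligand, such as the thyroid hormone receptors.

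Total counts over all regions ran from 2965505 to 7416187 per library. The percentage of counts from mitochondrial DNA regions parted the libraries across the groups: it was 2.27% to 17.25% in 7 of them (Chow_WT_27ac_96, Chow_WT_27ac_99, Ptulid_WT_27ac_135, Chow_NCoRKO_27ac_122, Chow_NCoRKO_27ac_146, Chow_NCoRKO_27ac_190 and Ptulid_NCoRKO_27ac_211) and 0.72% to 1.08% in the other 5. Results are therefore also given within these higher and lower sets where a set holds both groups. Libraries of a group differed by more than counting error, with a chi-square per degree of freedom of 1.98 to 7.87 between pairs. Levels are CPM, counts scaled to a library size adjusted by edgeR's TMM method. That size is taken over the regions that passed a filter on low counts or, for genes, over the counts assigned to such genes. Scaling of this kind hides any change shared by all of them.

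The 9 genes were among the more strongly acetylated in these livers. They held 8 to 24 regions each, against a median of 2 over all genes with a region, and their summed level lay between the 87.9th percentile (Cebpb) and the 99.5th (Cebpa). Per length of acetylated sequence the difference from other genes was smaller: their means were 25.31 to 34.49 CPM per kb, against a median of 24.97 over all genes. Cebpa was densest at 34.49 CPM per kb over 25149 bp, then Hnf4a at 33.53 over 20103 bp, Foxa1 at 31.69 over 8347 bp, Foxa2 at 29.64 over 14136 bp and Cebpb at 28.94 over 6596 bp. Foxa3 followed at 26.85 over 9220 bp, Prox1 at 26.66 over 17442 bp, Onecut2 at 25.99 over 9322 bp and Onecut1 at 25.31 over 9211 bp. Neighbours in this order were not parted beyond their spread: Cebpa lay above Hnf4a in 7 of 12 libraries, Foxa2 above Cebpb in 5, and Onecut2 above Onecut1 in 5. The clearest step was from Cebpb down to Foxa3, seen in 10 of 12 libraries.

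Several genes had their strongest region, the one with the highest mean CPM, away from the start site. Such a total grows with region length. For Cebpa (chr7:35119293-35121928, mm10, the assembly GRCm38 on which all coordinates are given) the strongest of 17 regions was a 6084-bp stretch at chr7:35144118-35150201, centred 27.9 kb downstream of the start, with 218.5 CPM. Per length it did not stand out. Its group means were 28.24 to 41.39 CPM per kb, against 35.76 to 48.83 for the region at 1.3 kb. The latter was the lower of the pair in KO PTU/LID alone (38.7 against 39.97). Only 1 of the Cebpa regions had its midpoint inside the gene. For Hnf4a (chr2:163506811-163572907), 14 of 20 regions lay inside, and the strongest was the 5258-bp region chr2:163537307-163542564 at 33.1 kb into the gene with 216.7 CPM. That region spans the start of Hnf4aos, a transcript antisense to Hnf4a. The region's group means were 32.05 to 52.62 CPM per kb, below those of the region at 41.3 kb in each group (46.93 to 64.62). The strongest Onecut1 region lay 58.2 kb downstream of the start, beyond the end of the gene (chr9:74861921-74889648), at 42.37 CPM per kb. The strongest Prox1 region, chr1:190168317-190170853 with 86.56 CPM, lay over both Prox1 start sites instead. The tables used here separate genes and start windows but not exons, introns or untranslated regions.

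Hnf4a has 2 annotated start sites, an upstream one known as the promoter of pancreas and fetal liver and, 40.3 kb further on, one known as the promoter of adult liver. The regions beside them were picked after their values were seen, as none overlaps a promoter window. Beside the upstream site the table held a single 200-bp region with a mean of 3.308 CPM, or 16.54 CPM per kb, which is the 34.6th percentile of all regions. Around the downstream site lay a pair of regions. The one before it, chr2:163546307-163546786, had 10.11 CPM, or 21.07 CPM per kb, at the 62.5th percentile, and the one after it, chr2:163547246-163549003, had 101.3 CPM, or 57.6 CPM per kb, at the 99.3rd percentile. In the 12 libraries the latter had 66.2, 84.76 and 96.55 CPM in WT chow, 75.88, 128.8 and 121.5 in WT PTU/LID, 109.8, 82.62 and 108.2 in KO chow, and 102.3, 127.5 and 111.1 in KO PTU/LID. The 4 groups overlap one another, apart from WT chow against KO PTU/LID, and neither of the pair passed in any comparison.

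**Figure D1:**
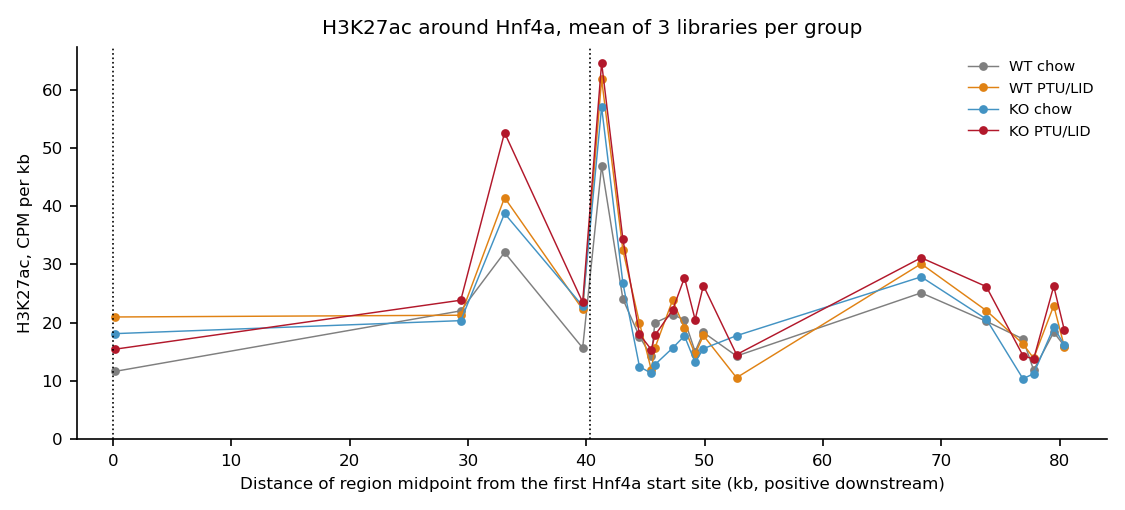
H3K27ac of the 20 Hnf4a regions (CPM per kb, mean of 3 libraries per group) against the distance of each midpoint from the first start site in kb. Dotted lines mark both start sites, and lines only join neighbouring regions. The region just after the downstream site reaches 46.93 to 64.62 CPM per kb in the 4 groups, and that beside the upstream site 11.63 to 20.97.

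The promoter windows of the genes that the results turn on are printed next, to show the sequence at the starts from which the regions' positions are counted. Most of the 139 regions lie elsewhere: 9 overlap such a window, and 81 lie outside the genes. They are RefSeq sequences of GRCm38.p6, 250 bases before to 50 after a start site, written 5′ to 3′ along the gene. Of the 9 genes, 8 matched with 12 windows in all, and Onecut2 is named only. Capitals mark matches, on either strand, to 1 of 6 motif strings, spelled out with their matches further on. No base of the 12 windows fell in more than 1 match.
Hnf4a upstream start (+ strand, chr2:163506607-163506906): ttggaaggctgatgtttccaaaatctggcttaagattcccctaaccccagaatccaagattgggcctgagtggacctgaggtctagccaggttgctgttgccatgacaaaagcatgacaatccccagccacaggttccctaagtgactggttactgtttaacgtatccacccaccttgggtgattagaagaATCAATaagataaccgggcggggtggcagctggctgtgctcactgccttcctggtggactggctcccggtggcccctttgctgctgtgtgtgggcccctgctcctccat
Hnf4a downstream start (+ strand, chr2:163546905-163547204): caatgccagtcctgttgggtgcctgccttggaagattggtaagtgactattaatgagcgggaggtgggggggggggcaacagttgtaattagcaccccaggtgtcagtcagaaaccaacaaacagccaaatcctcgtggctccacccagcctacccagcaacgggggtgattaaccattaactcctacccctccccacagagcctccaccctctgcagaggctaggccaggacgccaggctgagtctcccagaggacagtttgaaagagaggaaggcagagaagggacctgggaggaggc
Foxa2 first start (- strand, chr2:148046920-148047219): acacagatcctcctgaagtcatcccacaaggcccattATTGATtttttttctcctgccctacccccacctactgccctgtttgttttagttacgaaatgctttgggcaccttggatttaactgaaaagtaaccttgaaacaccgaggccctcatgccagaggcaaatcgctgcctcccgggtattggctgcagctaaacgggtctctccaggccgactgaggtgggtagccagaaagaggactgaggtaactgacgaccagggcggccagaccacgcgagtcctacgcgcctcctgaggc
Onecut1 (+ strand, chr9:74861671-74861970): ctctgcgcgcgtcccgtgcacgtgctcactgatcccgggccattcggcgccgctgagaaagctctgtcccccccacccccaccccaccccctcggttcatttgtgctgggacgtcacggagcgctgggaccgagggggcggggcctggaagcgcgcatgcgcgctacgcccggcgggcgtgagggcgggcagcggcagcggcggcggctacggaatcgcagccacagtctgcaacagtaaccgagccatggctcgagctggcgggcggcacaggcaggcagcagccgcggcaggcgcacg
Cebpa (+ strand, chr7:35119043-35119342): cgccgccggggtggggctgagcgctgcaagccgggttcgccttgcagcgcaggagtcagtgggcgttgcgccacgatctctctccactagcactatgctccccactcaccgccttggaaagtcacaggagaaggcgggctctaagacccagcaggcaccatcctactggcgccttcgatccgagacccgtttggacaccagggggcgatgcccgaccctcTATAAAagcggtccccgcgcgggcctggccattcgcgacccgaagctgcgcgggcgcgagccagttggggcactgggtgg

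The upstream Hnf4a window and the first Foxa2 window each hold 1 match of the Onecut string ATTGAT, at -59 and -213 from the start site, found in 7.5% of all 32851 windows in the RefSeq table. The Cebpa window has the TATA box string TATAAA at -30, as have 13.6% of windows. The downstream Hnf4a window and that of Onecut1 matched none of the 6 strings. The Onecut1 window has 38 CpG dinucleotides and 73% G and C, against medians of 7 and 52.7% over all windows. The first Foxa2 window has 12 CpG, and the other Foxa2 windows, not printed, have 23 and 13. The Cebpa window has 29 CpG, and both Hnf4a windows have 4. The forkhead string TGTTTAC, found in 3.6% of all windows, matched at Foxa1 alone among the 12 windows. The nuclear receptor half-site AGGTCA, found in 16.3% of all windows, matched in none of the 12. Neither did the C/EBP string TTGCNNAA, found in 10.8%. The HNF4 string CAAAGTCCA, found in 0.475%, also matched in none. A match or its lack says only whether these letters stand in the window.

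Tests were run with edgeR's quasi-likelihood method across all regions, or all genes with their region counts summed, and a feature passed when its p, adjusted by Benjamini and Hochberg's method, was below 0.05. Every one of the 139 regions and 9 genes passed the filter on low counts. There were 5 comparisons: the diet within each genotype, the genotype on each diet, and the difference between the diet effects. They share groups, since WT chow serves both the diet comparison in WT and the genotype comparison on chow, and each other group likewise serves 2.

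PTU/LID in WT livers went with higher acetylation around Cebpa. Its summed level was 647.6, 596.4 and 739.9 CPM in WT chow libraries Chow_WT_27ac_96, Chow_WT_27ac_99 and Chow_WT_27ac_106, and 754.8, 1050 and 1146 in WT PTU/LID libraries Ptulid_WT_27ac_135, Ptulid_WT_27ac_155 and Ptulid_WT_27ac_280. The groups do not overlap, but library Ptulid_WT_27ac_135 lies close to the chow libraries. The means were 661.3 ± 72.76 and 983.4 ± 203.6 CPM (SD, n = 3), a log2 fold change of 0.57 ± 0.14 (SE), or 1.49-fold, with adjusted p = 0.017 by edgeR. Cebpa was the only one of the 9 genes to pass, where 7.81% of all tested genes passed and 3.82% passed as higher. Without library Chow_WT_27ac_96, Chow_WT_27ac_99, Ptulid_WT_27ac_155 or Ptulid_WT_27ac_280 the adjusted p rose to between 0.0664 and 0.102. Within the higher mitochondrial set the log2 fold change was 0.28 (adjusted p = 0.252), and within the lower set 0.58 (adjusted p = 0.00108).

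**Figure D2:**
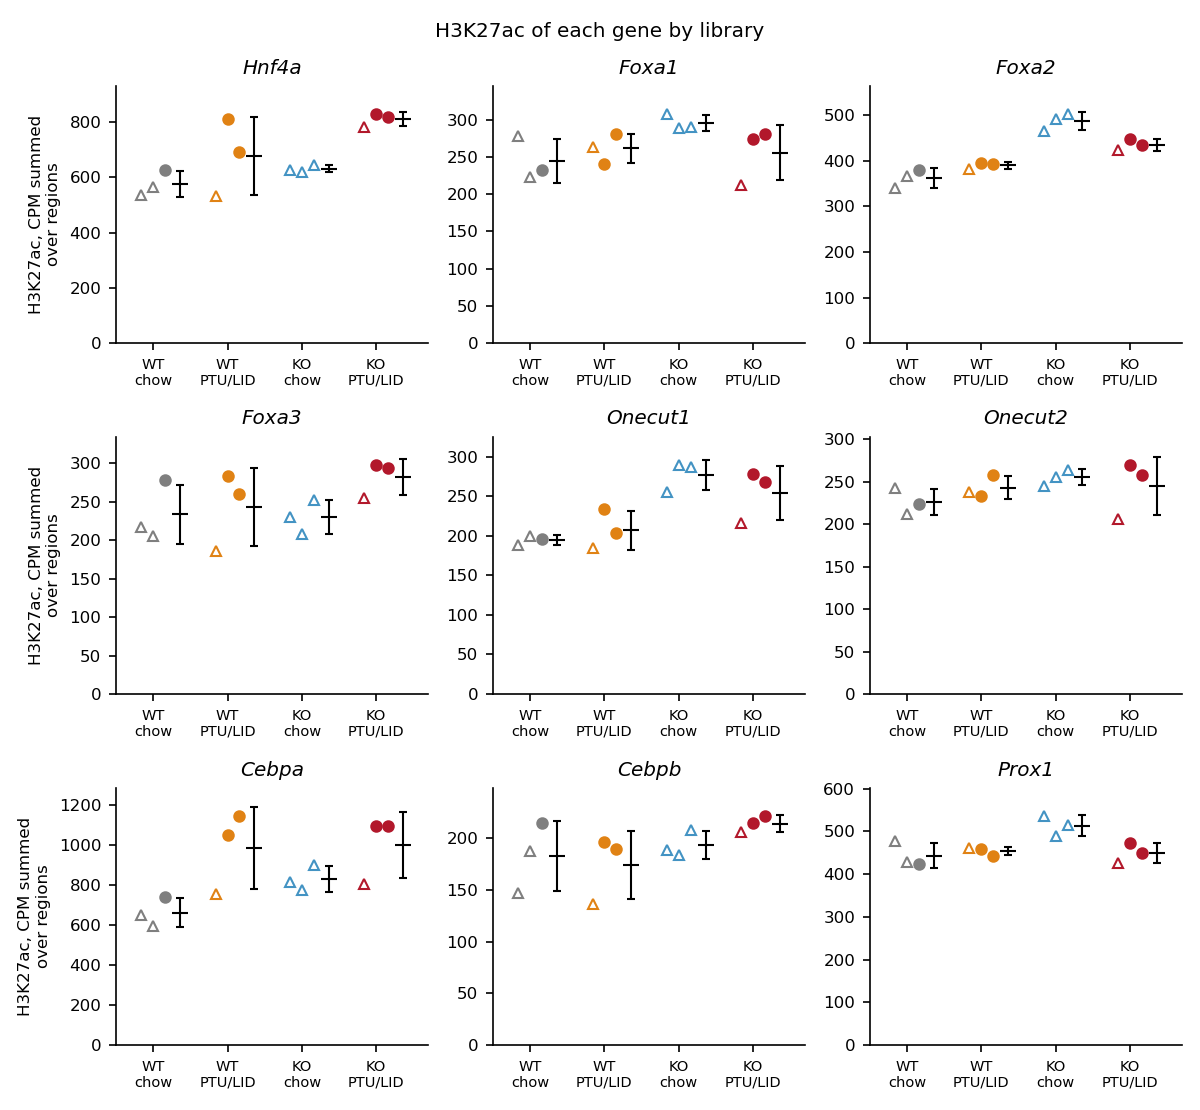
Summed H3K27ac (CPM, axis from 0) of each of the 9 genes in the 12 libraries, with the group mean and SD (n = 3) in black. Open triangles are libraries of the higher mitochondrial set and filled circles those of the lower set. Cebpa ran from 596.4 to 739.9 in WT chow and from 754.8 to 1146 in WT PTU/LID, and Foxa2 and Onecut1 in KO chow lay above all WT chow libraries.

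The rise was spread along the Cebpa locus. Of its 17 regions, which are not independent, 16 had a log2 fold change above 0, where 47.2% of all tested regions did. Their median was 0.66, and 4 passed, all outside the gene on its downstream side. The region centred at 24 kb, chr7:35142639-35143960, had 20.9, 20.43 and 26.62 CPM in WT chow and 34.65, 44.79 and 52.35 in WT PTU/LID. All 3 PTU/LID libraries exceeded all 3 chow libraries, and the log2 fold change was 0.95 ± 0.19 (adjusted p = 0.00183 by edgeR). It passed without each of the 6 libraries in turn and within the lower mitochondrial set (0.89, adjusted p = 0.00545), but not within the higher set (0.75, adjusted p = 0.207). The region at 22.4 kb, chr7:35141154-35142237, spans the start of the predicted gene Gm35665. It had 14.89, 10.49 and 13.06 CPM in WT chow and 15.24, 30.79 and 32.85 in WT PTU/LID, where library Ptulid_WT_27ac_135 barely exceeded the chow libraries (log2 fold change 1.06 ± 0.24, adjusted p = 0.00681). The regions at 3.8 kb and 15 kb also passed, with log2 fold changes of 0.66 ± 0.18 and 0.88 ± 0.24 (adjusted p = 0.0345 and 0.0333). In the region at 15 kb the groups overlap, since library Chow_WT_27ac_96 had 22.8 CPM and library Ptulid_WT_27ac_135 had 21.21. Within the higher mitochondrial set these last 3 regions had log2 fold changes of 0.27, 0.19 and 0.22, and none passed. The region at 22.4 kb did not pass without library Chow_WT_27ac_99, Ptulid_WT_27ac_155 or Ptulid_WT_27ac_280 (adjusted p = 0.0615, 0.0571 and 0.0876). That at 3.8 kb passed without library Ptulid_WT_27ac_135 but with no other library left out (0.0815 to 0.177), and that at 15 kb missed the threshold with a term for the mitochondrial sets (0.0628) and without library Chow_WT_27ac_106, Chow_WT_27ac_99, Ptulid_WT_27ac_155 or Ptulid_WT_27ac_280 (0.115 to 0.186). The promoter region, chr7:35116759-35119170, which reaches into the printed Cebpa window, did not pass at 0.30 ± 0.17 (adjusted p = 0.348).

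**Figure D3:**
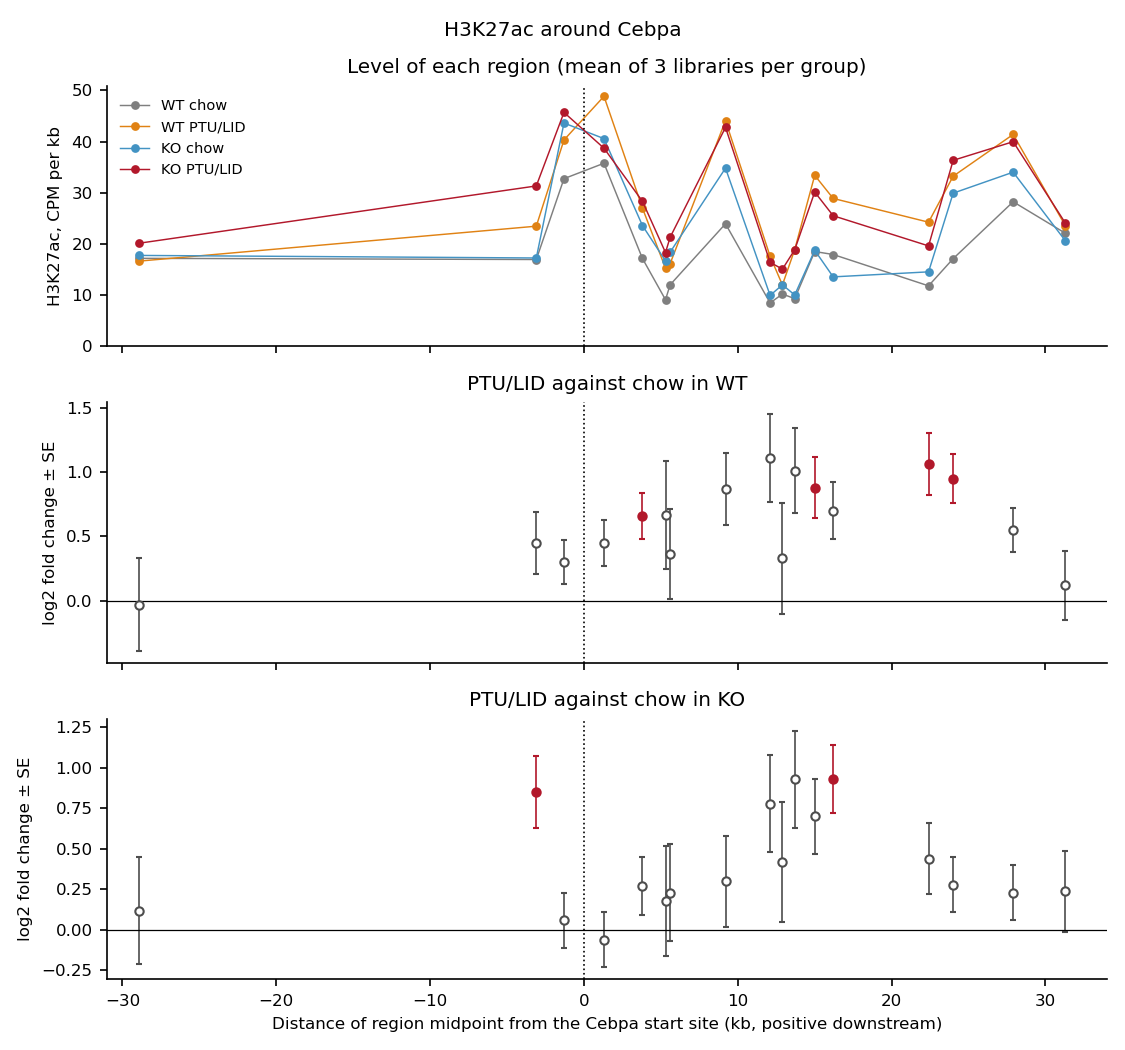
H3K27ac of the 17 Cebpa regions against their distance in kb from the start site (dotted line): level per group (CPM per kb, mean of 3 libraries) and log2 fold changes ± SE of PTU/LID against chow in WT and in KO. Filled red points passed. In WT 16 of 17 points lie above 0 and 4 passed, downstream of the gene, and in KO 16 lie above 0 and 2 passed.

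The other 8 genes gave little in this comparison. Hnf4a had a log2 fold change of 0.24 ± 0.12 (adjusted p = 0.224), with 534.5, 566.4 and 625.2 CPM in WT chow and 531, 810.6 and 693.6 in WT PTU/LID. Library Ptulid_WT_27ac_135 lay below all chow libraries there. Foxa1, Foxa2, Foxa3, Onecut1, Onecut2 and Prox1 lay between 0.03 and 0.11, and Cebpb at -0.07. One Onecut1 region fell, chr9:74848413-74848871 at -13.3 kb, over the start of Gm16551. It had 6.968, 8.835 and 6.613 CPM in WT chow and 2.987, 4.091 and 2.053 in WT PTU/LID, without overlap, a log2 fold change of -1.28 ± 0.34 (adjusted p = 0.0242). It did not pass without library Chow_WT_27ac_96, Chow_WT_27ac_99 or Ptulid_WT_27ac_280 (adjusted p = 0.0515, 0.105 and 0.174), nor within the higher set (0.291) or the lower set (0.169). In all, 5 of 139 regions passed, 4 higher and 1 lower, which is 3.6%, close to the 3.7% of all tested regions (1.81% higher and 1.9% lower). The median log2 fold change was 0.122 over the 139 regions and -0.031 over all regions.

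Markers of other liver cells moved in the same comparison. Of 8 Kupffer cell and macrophage markers, 3 had regions (Clec4f, Adgre1, Cd5l, Vsig4 and Marco had none), and their summed level was 48.42 to 63.68 CPM in WT chow and 25.61 to 33.79 in WT PTU/LID. Most of it was Spi1, with means of 48.29 and 25.38 CPM, the only one of the 3 to pass. Csf1r and Timd4 had means of 4.873 and 4.987 CPM in WT chow, and 2.285 and 2.245 in WT PTU/LID. Of 7 endothelial markers, 6 had regions, with 861.2 to 902.9 CPM in WT chow and 730.5 to 846.8 in WT PTU/LID. Of these 6, 2 passed as lower and 2 lay above 0. Of 7 stellate markers, 3 had regions, with 43.65 to 56.92 and 33.6 to 49.52 CPM, which overlap. Of 6 lymphocyte markers, 2 had regions, with 99.1 to 103 and 50.19 to 67.92 CPM. Of 6 cholangiocyte markers, 2 had regions and Krt7, Krt19, Epcam and Cftr had none, with 36.43 to 49.36 and 49.97 to 70.6 CPM. The 6 hepatocyte markers ran from 2234 to 3017 and from 2038 to 3062 CPM. The part of these differences in the Cebpa result was not tested.

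In KO livers none of the 9 genes passed for the diet, where 7.59% of all genes did. At an unadjusted p below 0.05 there were 2, Hnf4a and Foxa3, and DESeq2 called 0. The unadjusted count was not set against the share of all genes at that cutoff. Hnf4a came nearest, with 628.5, 619.6 and 644.4 CPM in KO chow libraries Chow_NCoRKO_27ac_122, Chow_NCoRKO_27ac_146 and Chow_NCoRKO_27ac_190 and 782.6, 831.3 and 819.7 in KO PTU/LID libraries Ptulid_NCoRKO_27ac_211, Ptulid_NCoRKO_27ac_232 and Ptulid_NCoRKO_27ac_239. These groups stand clearly apart, with means of 630.8 ± 12.55 and 811.2 ± 25.42 CPM (SD, n = 3), yet the log2 fold change of 0.36 ± 0.12 had an adjusted p of 0.0601 by edgeR. The fit shares 1 estimate of spread over all groups. With the 2 groups alone, the adjusted p was 0.0157 (log2 fold change 0.35). Of the 20 Hnf4a regions 18 lay above 0, with a median of 0.37, and none passed. Foxa3 had a log2 fold change of 0.30 ± 0.14 (adjusted p = 0.218). Foxa1, Foxa2 and Prox1 lay at -0.21 ± 0.12, -0.16 ± 0.09 and -0.19 ± 0.09, and all 8 Foxa1 regions lay below 0.

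Cebpa had a log2 fold change of 0.27 ± 0.14 for the diet in KO (adjusted p = 0.293), with 814.3, 772.5 and 897.3 CPM in KO chow and 806.4, 1092 and 1093 in KO PTU/LID. The groups overlap through library Ptulid_NCoRKO_27ac_211. Within the higher mitochondrial set, which holds library Ptulid_NCoRKO_27ac_211 and all of KO chow, the log2 fold change was -0.06, and with a term for the sets it was -0.02. In the fit of all 12 libraries without that term, 16 of 17 Cebpa regions lay above 0, with a median of 0.28. Of all tested regions 49.2% lay above 0. The 17 regions share a locus and the same libraries, so they are not independent. Of them 2 passed. The region at -3.1 kb, chr7:35115920-35116550, had 11.8, 10.79 and 10.09 CPM in KO chow and 21.23, 17.53 and 20.55 in KO PTU/LID, without overlap (log2 fold change 0.85 ± 0.22, adjusted p = 0.0116). Here library Ptulid_NCoRKO_27ac_211 was the highest, and within the higher set the log2 fold change was 0.96 (adjusted p = 0.0584). The region at 16.2 kb, chr7:35134887-35136005, had 16.69, 12.65 and 16.2 CPM in KO chow and 19.69, 32.57 and 33.38 in KO PTU/LID (0.93 ± 0.21, adjusted p = 0.0044). There library Ptulid_NCoRKO_27ac_211 lay nearest to chow, and within the higher set the log2 fold change was 0.37 (adjusted p = 0.598). Without KO chow library Chow_NCoRKO_27ac_190 or KO PTU/LID library Ptulid_NCoRKO_27ac_239 the first of these had adjusted p = 0.0661 and 0.0608, and without library Ptulid_NCoRKO_27ac_239 the second had 0.0521. With a term for the sets neither passed, at log2 fold changes of 0.67 and 0.58 (adjusted p = 0.115 and 0.15).

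In the KO diet comparison 2 regions fell. A 240-bp Foxa1 region, chr12:57516006-57516245 at 30 kb downstream, had 5.444, 4.838 and 2.751 CPM in KO chow and 1.534, 1.38 and 1.458 in KO PTU/LID (-1.56 ± 0.40, adjusted p = 0.0124 by edgeR). Its KO PTU/LID values rest on few reads, as 1 count was about 0.2557, 0.138 and 0.1458 CPM in those libraries. An Onecut1 region, chr9:74849130-74849530 at -12.6 kb and close to the one that fell in WT, had 9.073, 8.373 and 8.1 CPM in KO chow and 5.371, 3.865 and 3.79 in KO PTU/LID (-1.0 ± 0.31, adjusted p = 0.0421). Neither pair of groups overlaps. Neither passed within the higher mitochondrial set (adjusted p = 0.222 and 0.515) or with a term for the sets (0.248 and 0.322). The Foxa1 region did not pass without library Chow_NCoRKO_27ac_122, Chow_NCoRKO_27ac_146, Ptulid_NCoRKO_27ac_232 or Ptulid_NCoRKO_27ac_239 (adjusted p = 0.0904, 0.0539, 0.0636 and 0.0588). The Onecut1 region missed the threshold without library Chow_NCoRKO_27ac_122, Chow_NCoRKO_27ac_146, Chow_NCoRKO_27ac_190, Ptulid_NCoRKO_27ac_232 or Ptulid_NCoRKO_27ac_239 (0.0859 to 0.18) and with DESeq2 (0.0594). The 4 regions that passed are 2.88% of the 139, against 6.21% of all tested regions (3.28% higher and 2.94% lower).

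Markers of liver cells moved with the diet in KO as well. The summed hepatocyte markers had 2342 to 2713 CPM in KO chow and 3088 to 3301 in KO PTU/LID, and the lymphocyte markers 105.9 to 142.9 and 74.21 to 75.66, both without overlap. Of the 6 hepatocyte markers 5 lay above 0 and only Ttr passed, at 0.47 ± 0.09 (adjusted p = 0.00145 by edgeR). Serpina1a lay at -0.11 ± 0.12. The lymphocyte fall was that of Cd4, at -1.03 ± 0.16 on the log2 scale (adjusted p = 0.000151 by edgeR). Ptprc, the other lymphocyte marker with regions, had 0.31 ± 0.19 (adjusted p = 0.387). The endothelial markers had 714.6 to 734.2 and 670 to 730.8 CPM, the Kupffer cell and macrophage markers 30.32 to 37.38 and 26.21 to 44.25, the stellate markers 26.66 to 37.6 and 26.52 to 39.26, and the cholangiocyte markers 45.89 to 54.79 and 44.07 to 59.9, all with overlap. Their part in the Hnf4a values and in the regions that passed was not tested.

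**Figure D4:**
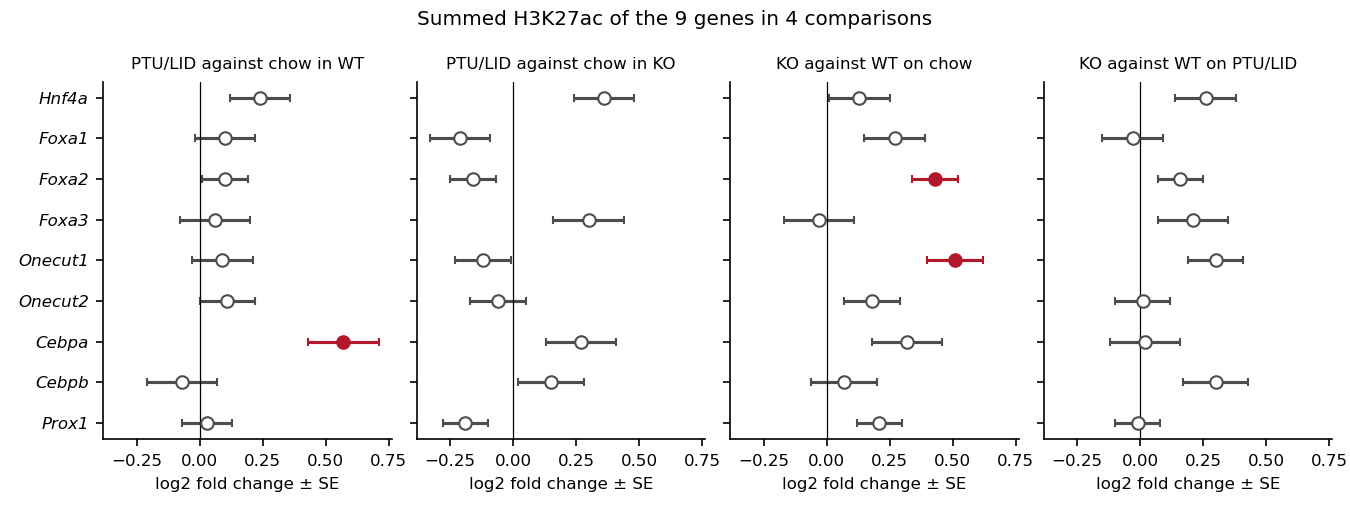
Log2 fold changes ± SE of the summed H3K27ac of the 9 genes for the diet in WT and in KO and for the genotype on chow and on PTU/LID. Filled red points passed (adjusted p below 0.05): Cebpa for the diet in WT, and Foxa2 and Onecut1 for the genotype on chow.

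Loss of NCoR1 on chow went with higher acetylation of Onecut1 and Foxa2. Onecut1 had 187.8, 199.6 and 196 CPM in WT chow and 255.3, 289.9 and 286.5 in KO chow. Foxa2 had 339.5, 367.4 and 381.2 CPM in WT chow and 466.8, 493 and 504.2 in KO chow. In both genes every KO library lay well above every WT library. The means of Onecut1 were 194.5 ± 6.036 and 277.2 ± 19.04 CPM (SD, n = 3), a log2 fold change of 0.51 ± 0.11, or 1.43-fold (adjusted p = 0.0124 by edgeR). Those of Foxa2 were 362.7 ± 21.23 and 488 ± 19.19 CPM, a log2 fold change of 0.43 ± 0.09, or 1.34-fold (adjusted p = 0.0105 by edgeR). Both passed within the higher mitochondrial set, with log2 fold changes of 0.51 (adjusted p = 0.000816) and 0.46 (adjusted p = 0.000688). The lower set held no KO chow library. Neither call held with every library left out. Onecut1 had adjusted p of 0.0531, 0.0722, 0.0549 and 0.0565 without library Chow_NCoRKO_27ac_146, Chow_NCoRKO_27ac_190, Chow_WT_27ac_96 and Chow_WT_27ac_99. Foxa2 had 0.0657, 0.0561 and 0.0542 without library Chow_NCoRKO_27ac_190, Chow_WT_27ac_96 and Chow_WT_27ac_99. Over all alternative settings the log2 fold changes were 0.49 to 0.92 for Onecut1 and 0.38 to 0.62 for Foxa2. With 1 of the 6 libraries left out 114 to 253 of all genes passed, against 470 in the fit of all 12 libraries. Of the 9 genes 2 passed, both higher, where 4.1% of all genes passed and 2.54% passed as higher.

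At Onecut1 the regions that passed lay in the first part of the gene. Of 15 regions 4 passed, centred between 0.4 and 5.2 kb. The rise was not confined to them: 13 regions lay above 0, most of them outside the gene, and the median was 0.55. The region at 4.4 kb, between the last pair of these, did not pass (0.55 ± 0.23, adjusted p = 0.187). The first of the 4, chr9:74861941-74862631, begins just after the start site and overlaps the end of the printed CpG-rich window. It had 5.068, 6.902 and 3.968 CPM in WT chow and 12.7, 9.118 and 12.69 in KO chow (log2 fold change 1.15 ± 0.28, adjusted p = 0.0196). The region at 1.6 kb had 21.85, 16.84 and 11.74 CPM in WT chow and 23.59, 38.52 and 33.62 in KO chow (0.96 ± 0.22, adjusted p = 0.0109). Library Chow_NCoRKO_27ac_122 lay near the WT range there. The regions at 3.1 kb and 5.2 kb had log2 fold changes of 0.82 ± 0.23 (adjusted p = 0.0468) and 1.43 ± 0.35 (adjusted p = 0.0188). At 5.2 kb library Chow_NCoRKO_27ac_122 had 4.537 CPM and the WT chow libraries 3.801, 3.313 and 1.984, and the other KO chow libraries had 9.304 and 9.476. The strongest Onecut1 region, at 58.2 kb, did not pass (0.32 ± 0.18, adjusted p = 0.353). Within the higher mitochondrial set the 4 log2 fold changes were 0.93, 0.73, 0.79 and 1.13, and only the region at 1.6 kb passed (adjusted p = 0.042). None of the 4 passed without library Chow_NCoRKO_27ac_190 (adjusted p = 0.0603 to 0.209) or without library Chow_WT_27ac_106 (0.131 to 0.159), and each missed it without 2 or 3 further libraries.

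Foxa2 had 18 regions, of which 15 lay above 0 with a median of 0.36 and 3 passed. The region over the first start site, chr2:148046342-148047751, had 39.59, 42.79 and 32.9 CPM in WT chow and 59.34, 60.47 and 62.97 in KO chow (0.67 ± 0.17, adjusted p = 0.027). It covers the printed Foxa2 window. The region at 2.5 kb, chr2:148043388-148045497, had 53.84, 52.18 and 60.01 CPM in WT chow and 81.84, 81.5 and 85.74 in KO chow (0.58 ± 0.16, adjusted p = 0.0402). A region at 22.2 kb downstream, chr2:148024471-148025010, inside the noncoding gene 9030622O22Rik, had 10.14, 10.77 and 12.23 CPM in WT chow and 17.24, 20.65 and 25.83 in KO chow (0.93 ± 0.22, adjusted p = 0.0135). None of the 3 showed overlap, and all 3 passed within the higher mitochondrial set (adjusted p = 0.0291, 0.00416 and 0.0104). Those over the first start and at 2.5 kb passed only with all 6 libraries, and leaving out any 1 raised their adjusted p to 0.0554 to 0.153. The region at 22.2 kb did not pass without library Chow_NCoRKO_27ac_190, Chow_WT_27ac_96 or Chow_WT_27ac_99 (0.126, 0.0577 and 0.069).

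**Figure D5:**
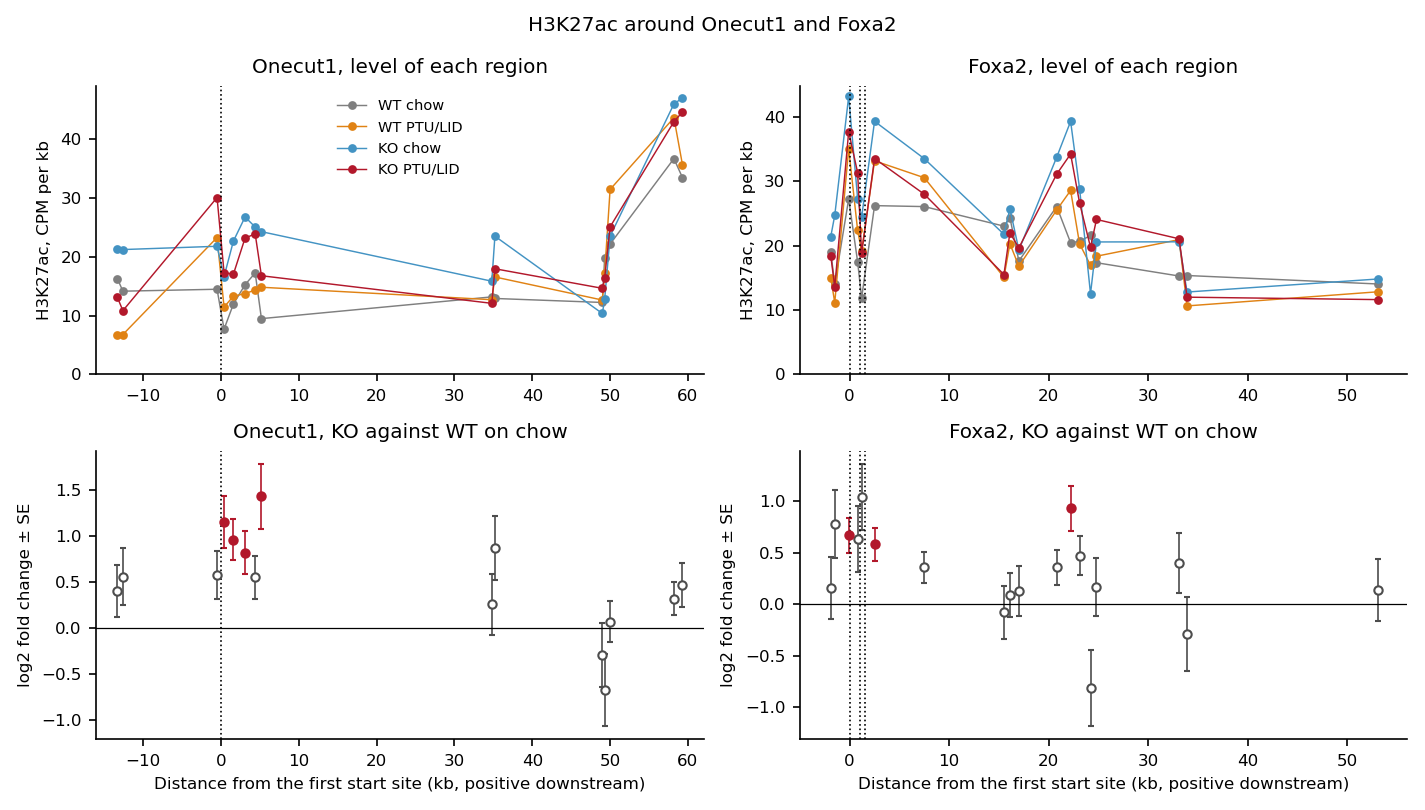
H3K27ac of the Onecut1 and Foxa2 regions against distance in kb from the first start site (dotted lines mark annotated starts): level per group (CPM per kb, mean of 3 libraries) and log2 fold change ± SE of KO against WT on chow. Filled red points passed, 4 at Onecut1 between 0.4 and 5.2 kb and 3 at Foxa2 at -0.1, 2.5 and 22.2 kb.

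The Cebpa region at 24 kb, which rose with the diet in WT, also rose with the genotype on chow, from the same WT chow libraries to 41.01, 34.42 and 43.25 CPM (0.79 ± 0.19, adjusted p = 0.0141, and 0.94 within the higher set, adjusted p = 0.00151). Because both comparisons use WT chow, they are not independent. It did not pass without library Chow_NCoRKO_27ac_122, Chow_NCoRKO_27ac_190, Chow_WT_27ac_96 or Chow_WT_27ac_99 (adjusted p = 0.0584, 0.0945, 0.0631 and 0.0924). Cebpa as a whole had 0.32 ± 0.14 (adjusted p = 0.202), and 0.41 within the higher mitochondrial set (adjusted p = 0.00196). Foxa1, Prox1, Onecut2, Hnf4a and Cebpb had log2 fold changes of 0.27, 0.21, 0.18, 0.13 and 0.07, and Foxa3 of -0.03. In total 8 of the 139 regions passed, all higher, which is 5.76%, where 2.43% of all tested regions passed and 1.61% passed as higher. The median was 0.146 over the 139 regions and -0.006 over all regions. With a term for the mitochondrial sets 21 of the 139 passed, and the count over all regions rose from 1278 to 4008. Leaving out library Chow_NCoRKO_27ac_190 left 0 of the 139 and 499 of all regions. Leaving out library Chow_WT_27ac_99, Chow_WT_27ac_96, Chow_WT_27ac_106, Chow_NCoRKO_27ac_146 or Chow_NCoRKO_27ac_122 left 1 to 4 of the 139 and 448 to 799 of all regions.

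Here too markers of other cells differed. The Kupffer cell and macrophage markers had 30.32 to 37.38 CPM in KO chow against 48.42 to 63.68 in WT chow, the endothelial markers 714.6 to 734.2 against 861.2 to 902.9, and the 3 of 7 stellate markers with regions 26.66 to 37.6 against 43.65 to 56.92. Spi1, which held most of the first sum, was the only one of its 3 markers to pass (-0.71 ± 0.18, adjusted p = 0.0255 by edgeR). Of the 6 endothelial markers with regions, 2 passed as lower and 2 lay above 0. The hepatocyte markers had 2342 to 2713 against 2234 to 3017 CPM, and the cholangiocyte markers 45.89 to 54.79 against 36.43 to 49.36. The lymphocyte markers had 105.9 to 142.9 against 99.1 to 103, where Cd4, the T helper cell coreceptor, rose by 0.56 ± 0.16 on the log2 scale and Ptprc (CD45) fell by 0.69 ± 0.19 (adjusted p = 0.0479 and 0.0415 by edgeR). Their part in the Onecut1 and Foxa2 results was not tested.

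On PTU/LID none of the 9 genes and none of the 139 regions passed for the genotype, where 6.67% of all genes and 3.86% of all regions did. At an unadjusted p below 0.05 there were 3 genes (Onecut1, Cebpb and Hnf4a) and 10 regions, and DESeq2 called 0 of either. The unadjusted counts were not set against the share of all genes or regions at that cutoff. Onecut1 had 184.7, 233.3 and 202.9 CPM in WT PTU/LID and 215.7, 278.1 and 268 in KO PTU/LID, which overlap (0.30 ± 0.11, adjusted p = 0.136). Without library Ptulid_NCoRKO_27ac_211 its log2 fold change was 0.40 (adjusted p = 0.0238), and within the lower mitochondrial set 0.32 (adjusted p = 0.0429). Foxa2 had 381.8, 395.9 and 393 CPM in WT PTU/LID and 423.1, 448.3 and 434.4 in KO PTU/LID. Its groups do not overlap, but the log2 fold change of 0.16 ± 0.09 did not pass (adjusted p = 0.378). Hnf4a and Cebpb had 0.26 ± 0.12 and 0.30 ± 0.13 (adjusted p = 0.226 and 0.225), and Cebpa had 0.02 ± 0.14.

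The difference between the diet effects of the genotypes passed for no gene and no region of the 9, where 0.419% of all genes and 0.23% of all regions passed. At an unadjusted p below 0.05 there were 0 genes and 11 regions, and DESeq2 called 0. Here too the share of all features at the unadjusted cutoff was not taken. The largest gene values were -0.30 ± 0.16 for Foxa1 and -0.30 ± 0.20 for Cebpa. So the Cebpa diet effect that passed in WT and missed the threshold in KO was not shown to differ between them, and the same holds for the genotype effects of Onecut1 (-0.21 ± 0.16) and Foxa2 (-0.27 ± 0.13) on the 2 diets. With a term for the mitochondrial sets the Cebpa value was -0.44 (adjusted p = 0.0477).

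Regions that overlap a start window, the 300 bases around an annotated start, were compared with the others. There were 9 of them, 4 at Foxa2 and 1 each at Foxa1, Foxa3, Onecut1, Cebpa and Prox1. They were denser than the rest, with a median of 26.49 CPM per kb against 18.39 for the 49 other regions inside the genes and 18.35 for the 81 outside. All 9 lay above 0 for the diet in WT (median log2 fold change 0.34) and for the genotype on chow (0.58), 4 did for the diet in KO (median -0.15), and none did for the difference of the diet effects (-0.42). Over all 8861 regions that overlap a start window the medians were 0.068, 0.049, -0.038 and -0.101. The shares above 0 among them were 58.3%, 56.7%, 44.8% and 37.6%, in the same order. The 4 Foxa2 regions lie side by side, so the 9 are not independent. The share of nuclear counts in such regions was 25.5% to 29.1% in the 12 libraries.

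Of 25 other liver transcription factor genes, all with regions, 3 passed for the diet in WT (12%, against 7.81% of all genes). There Nr1i3 (the xenobiotic receptor CAR) rose by 0.52 ± 0.13 on the log2 scale and Creb3l3 by 0.45 ± 0.13, while Bcl6, a repressor, fell by 0.34 ± 0.10. For the diet in KO only Bcl6 passed, at -0.33 ± 0.10 (4%, against 7.59%). Bcl6 was also the only one to pass for the genotype on chow, at 0.45 ± 0.10 (4%, against 4.1%). On PTU/LID, 4 rose with the genotype (16%, against 6.67%): Nr1i2 (the xenobiotic receptor PXR) by 0.79 ± 0.17, Zhx2 by 0.50 ± 0.11, Nr0b2 (SHP) by 0.49 ± 0.12 and Bcl6 by 0.46 ± 0.10. The medians of the 25 were -0.05, -0.04, 0.15 and 0.02 in these 4 comparisons, and those of all genes -0.019, -0.007, -0.006 and -0.018.

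Of 18 genes for hepatocyte products, which these factors are known to drive, 3 passed for the diet in each genotype (16.7%, against 7.81% of all genes in WT and 7.59% in KO). Ttr (transthyretin) rose by 0.41 ± 0.09 in WT and 0.47 ± 0.09 in KO, and Apoa2 by 0.38 ± 0.11 and 0.40 ± 0.11. Cyp7a1, whose enzyme sets the rate of bile acid synthesis, had -0.67 ± 0.14 and -1.0 ± 0.13. With the genotype Cyp7a1 rose by 0.70 ± 0.13 on chow and G6pc, the glucose-6-phosphatase gene, by 0.60 ± 0.11 on PTU/LID, each as the only one of the 18 (5.56%, against 4.1% and 6.67%). Their medians were 0.11 and 0.19 for the diet in WT and in KO, and 0.18 for the genotype on either diet.

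Across the 12 libraries the 9 genes followed one another unevenly. Pearson's r of the log2 summed levels was 0.91 for Foxa2 with Onecut1, 0.87 for Foxa1 with Onecut2, 0.86 for Hnf4a with Foxa3, 0.82 for Foxa1 with Prox1, 0.81 for Foxa3 with Cebpb and 0.80 for Hnf4a with Cebpa. The lowest was -0.18 for Foxa3 with Prox1. Among 5721 genes compared, the gene most like Cebpa was Gdf15 (r = 0.97), that most like Hnf4a was Bnip3 (0.96) and that most like Onecut1 was Bri3bp (0.95). For Foxa2 it was Ucma (0.94), for Foxa1 Zfp710 (0.88), for Foxa3 Ren1 (0.96), for Onecut2 Armc1 (0.95), for Cebpb Lpin2 (0.95) and for Prox1 C130074G19Rik (0.90). These values describe libraries that share the groups, depth and mitochondrial share, and carry no test.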

How the data were processed

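The deposited table holds whole-number read counts per library over shared regions, made by the authors. The submitters' processing notes name mm10 and, without roles, MACS2 2.1.1, Bowtie2 2.2.1, bedtools 2.26.0, Picard 2.8.1 and bcl2fastq 2.17.1.14. The sources used here do not give how the shared regions were made. The 9 genes and the gene lists were chosen with earlier results of these data known.

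Regions were assigned with a RefSeq gene table of GRCm38.p6. A midpoint inside several genes went to a member gene, otherwise to the shortest. Counts were tested with edgeR 4.0.16 in R 4.3.3 (TMM, filterByExpr with a minimum count of 10, robust quasi-likelihood fit, 1 mean per group, 12 libraries), which left 52606 regions and 11459 genes. SEs are the size of the log2 fold change divided by the root of F. Regions were named where they passed, were the strongest of a gene or overlapped a start window; listed genes where they passed, up to 4 per list and comparison. One listed gene and one motif are not reported here. The test was tested on simulated data. Alternatives were DESeq2 1.42.0, other scaling, filters, assignment distances, mitochondrial sets (cut at 2%) and left-out libraries.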

Additional observations from a re-analysis of the deposited data

Results flagged for a closer look

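The libraries of Foxa2 stood in opposite orders with the diet in the 2 genotypes. All 3 WT PTU/LID libraries lay above all 3 WT chow libraries, though the lowest of the former had 381.8 CPM and the highest of the latter 381.2. All 3 KO PTU/LID libraries lay below all 3 KO chow libraries, at 423.1 to 448.3 against 466.8 to 504.2 CPM. The log2 fold changes were 0.10 ± 0.09 in WT and -0.16 ± 0.09 in KO. The difference of the diet effects was -0.27 ± 0.13 on the log2 scale (adjusted p = 0.48 by edgeR), which did not pass, and neither diet effect passed on its own. The Foxa2 region at 2.5 kb, chr2:148043388-148045497, showed the same order of libraries, with a difference of -0.57 ± 0.22 (adjusted p = 0.398). In the region at 7.5 kb, chr2:148038275-148040711, the strongest of Foxa2, the diet effects and also the genotype effects went opposite ways in every library. The values were 58.28, 64.6 and 67.78 CPM in WT chow, 78.27, 72.13 and 73.09 in WT PTU/LID, 74.94, 82.62 and 87.57 in KO chow, and 66.75, 68.87 and 69.1 in KO PTU/LID. The difference was -0.48 ± 0.22 (adjusted p = 0.482). Each diet comparison shares a group with each genotype comparison, so the diet and genotype orders are not independent of each other.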

How the results depend on the processing

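The counts of regions and genes that passed were low and moved with single libraries. For the diet in WT, with 5 regions and 1 gene, 0 regions and 0 genes passed within the higher mitochondrial set, 12 regions within the lower set, 0 genes with regions within 2.5 kb of a gene end, and 1 to 14 regions and 0 to 2 genes with a library left out. For the diet in KO, with 4 regions and 0 genes, 1 region passed with a term for the sets and 1 gene with the 2 groups alone. With a library left out 0 to 8 regions did. All features gave 3269 regions and 870 genes, 2617 regions with the term and 963 genes with the 2 groups alone. Without 1 library it was 1794 to 3602 regions. For the genotype on chow 8 regions and 2 genes passed, and 21 regions with the term. With a library left out 0 to 4 regions and 0 to 2 genes did. All features gave 1278 regions and 470 genes, and 4008 regions with the term. Without 1 library it was 448 to 799 regions and 114 to 253 genes. For the genotype on PTU/LID, with 0 of both, 4 regions and 2 genes passed with the term, and 2 regions and 1 gene within the lower set. With regions within 10 kb 1 gene passed, and 0 to 1 of either with a library left out. All features gave 2032 regions and 764 genes, 3380 and 1199 with the term, and 4001 and 1279 within the lower set. With regions within 10 kb 678 genes passed. Without 1 library it was 929 to 2599 regions and 365 to 1025 genes. For the difference of diet effects, with 0 of both, 1 region and 1 gene passed with the term. All features gave 121 regions and 48 genes, and 523 and 212 with the term. DESeq2, other size factors, no filter and no mitochondrial regions kept each count within 1.5 times.

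No gene that passed changed sign. Log2 fold changes of genes that did not pass did so as follows. With regions within 2.5 kb of a gene end, Foxa1 (0.015) and Onecut2 (-0.11) for the genotype on PTU/LID, Foxa3 (0.032) for the genotype on chow, Onecut2 (0.037) for the diet in KO and Hnf4a (-0.069) for the difference. With the term, Cebpa (-0.019) and Cebpb (-0.061) for the diet in KO, Foxa3 (0.12) for the genotype on chow and -0.071 for the diet in WT. Within the higher set, Foxa3 (0.12, -0.18) in the same comparisons, Cebpa (-0.056) for the diet in KO, Hnf4a (-0.052) and Onecut1 (-0.069) for the diet in WT and Onecut2 (-0.23) for the genotype on PTU/LID. Within the lower set, Cebpa (-0.016), Foxa1 (0.080) and Prox1 (0.027) for the genotype on PTU/LID and Foxa3 (-0.016) for the diet in WT. Without regions inside another gene of any type, a setting added after the data were seen, Cebpb (0.079) for the diet in WT. With a library left out, the genotype effect on PTU/LID ran from -0.14 to 0.15 for Cebpa, -0.10 to 0.084 for Foxa1, -0.078 to 0.12 for Onecut2 and -0.065 to 0.025 for Prox1. On chow it ran from -0.059 to 0.21 for Cebpb and -0.11 to 0.12 for Foxa3. The diet effect in WT ran from -0.21 to 0.068 for Cebpb, -0.065 to 0.21 for Foxa3 and -0.0040 to 0.16 for Onecut1, in KO from -0.13 to 0.050 for Onecut2, and the difference from -0.022 to 0.27 for Hnf4a. The causes were not tested. No paired analysis was possible because the H3K27ac groups share no library numbers. With 3 libraries a group, a region without a pass may still differ.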
